A study of Mus musculus with 6 samples.

Results

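Long intergenic non-coding RNAs (lincRNAs) are transcripts without a recognised protein-coding reading frame whose genes lie between protein-coding genes. The 276 expressed lincRNAs described here were the rows annotated as lincRNA in GENCODE M21, the mouse gene catalogue on the GRCm38 assembly, that reached a mean of at least 1 count per 1000000 counts of the library (CPM) in epiblast-like cells (EpiLC) or in embryonic stem cells (ESC). The count table held 4797 lincRNA rows among 51633 rows with a GENCODE M21 entry, and 3001 of the 4797 had 0 counts in every library. A further 7 lincRNA rows passed the level but were left out by name, because they are imprinted transcripts or microRNA hosts: H19, Meg3, Mirg, Mir670hg, Mir17hg, Mir9-3hg and Mir124a-1hg. Of the members, 54 reached 1 CPM in EpiLC only, 62 in ESC only and 160 in both states. The level in either state thus chose the members. This favoured differences in members that reached 1 CPM in only 1 state, without forcing a call. Below, present in a state means a mean of at least 1 CPM there, so a member can still have counts in the other state. Just inside the threshold lay Gm7932, 9530052C20Rik and Gm7160, whose mean in EpiLC was 1.01, 1.01 and 1.02 CPM of the column total. Just outside lay Gm44067, Gm38258 and A430105J06Rik, at 0.992, 0.990 and 0.985 CPM in EpiLC.

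The study measured total RNA, depleted of ribosomal RNA, in wild-type V6.5 cells, an established male hybrid mouse ESC line, with 3 libraries per state. EpiLC had been kept for 3 days without LIF and without 2i, the pair of inhibitors of GSK3 and MEK that holds ESC in the naive state. ESC were grown with LIF and 2i, and both states were kept in the same medium with 15% fetal bovine serum. The labels do not say whether the libraries came from separate cultures, so the p-values measure the spread between these libraries, which may be technical. In bulk RNA, fewer cells that express a transcript and less of it per cell cannot be told apart.

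Many lincRNAs remain in the nucleus, where they can scaffold nuclear bodies, bind chromatin regulators or act on neighbouring genes through their transcription, while others are cytoplasmic and bind microRNAs or proteins. Some lincRNA genes carry microRNAs or small nucleolar RNAs in their introns and exons. In mouse ESC, screens of transcripts that follow the pluripotent state named the PLATR (pluripotency-associated transcript) group, and Lncenc1 and Ephemeron (symbol Eprn) have been tied to the naive state.

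The sequences behind several of the members below are given first. For the start sites, RefSeq windows (GRCm38.p6) from 250 bases before to 50 bases after the start are printed for Platr7 and Lncenc1, which fell in EpiLC, and for Ftx, which rose. They are shown because CpG content at the start, marked in capitals, differed widely among members: 0 CpG in the Platr7 window, 4 in that of Lncenc1 and 12 in that of Ftx.
Platr7, chr10:84553289-84553588, minus strand: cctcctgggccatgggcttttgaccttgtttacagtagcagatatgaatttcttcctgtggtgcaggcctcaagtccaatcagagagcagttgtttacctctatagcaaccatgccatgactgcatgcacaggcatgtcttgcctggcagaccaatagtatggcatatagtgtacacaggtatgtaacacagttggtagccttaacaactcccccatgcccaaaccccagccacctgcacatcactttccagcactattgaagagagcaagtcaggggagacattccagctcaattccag
Lncenc1, chr13:97434720-97435019, plus strand: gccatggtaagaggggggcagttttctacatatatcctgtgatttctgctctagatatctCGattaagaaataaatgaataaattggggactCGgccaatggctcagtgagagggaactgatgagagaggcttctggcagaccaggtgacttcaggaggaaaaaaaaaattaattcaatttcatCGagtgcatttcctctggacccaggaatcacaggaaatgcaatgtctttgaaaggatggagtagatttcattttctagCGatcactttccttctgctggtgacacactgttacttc
Ftx, chrX:103623705-103624004, minus strand: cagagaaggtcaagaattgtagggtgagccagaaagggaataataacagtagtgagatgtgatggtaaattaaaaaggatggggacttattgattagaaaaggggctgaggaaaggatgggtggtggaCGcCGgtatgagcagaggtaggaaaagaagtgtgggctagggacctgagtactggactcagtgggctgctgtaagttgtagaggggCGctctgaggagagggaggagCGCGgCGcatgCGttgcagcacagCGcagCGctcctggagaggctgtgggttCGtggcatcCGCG

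MicroRNA genes lay within 9 members on the same strand, 14 microRNA genes in all. Mature microRNAs of the 4 hosts called higher in EpiLC are shown with the seed, bases 2 to 8, in capitals. Only host counts are described below. The mature forms were not measured, and counts of the microRNA genes themselves are not reported here. C130071C03Rik spans miR-9-2, Rmst spans miR-135a-2, Ftx spans miR-374b and miR-421, and 6720427I07Rik carries the let-7a-1, let-7f-1 and let-7d cluster, whose 3 main arms share the seed GAGGUAG. The sequences are those of RefSeq.
mmu-miR-9-5p: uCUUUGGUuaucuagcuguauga
mmu-miR-135a-5p: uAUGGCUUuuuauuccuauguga
mmu-miR-374b-5p: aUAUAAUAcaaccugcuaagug
mmu-let-7a-5p: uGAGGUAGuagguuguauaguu
mmu-let-7f-5p: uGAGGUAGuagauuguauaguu
mmu-let-7d-5p: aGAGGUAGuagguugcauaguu

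The opposite relation, a lincRNA that binds a microRNA, is represented by 1700020I14Rik, listed in RefSeq as Oip5os1 and known as Cyrano, which triggers decay of miR-7 in mouse. Its 8300-base GENCODE transcript held 2 matches to the miR-7 seed. The site at chr2:119602137-119602161 (GRCm38, plus strand) could pair with 21 of the 23 bases of miR-7a-5p, and the other with 11 of 23. The alignment of the first site skipped 2 of its bases, apart from mismatched bases. A miR-7 seed match alone was present in the longest transcript of 51 of the 276 members, 18.5%. Capitals mark the seed of the microRNA and the bases of the site that match it.
mmu-miR-7a-5p: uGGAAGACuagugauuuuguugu
site in 1700020I14Rik: acaacaaaatcaccaatGTCTTCCa

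The libraries held 9710410 to 11425054 counts in EpiLC and 11499687 to 22879812 counts in ESC, so that 3 counts corresponded to 0.257 to 0.301 CPM in EpiLC and 0.135 to 0.261 CPM in ESC. Intervals and limits of this kind cover counting error only. All 10 naive ESC markers, among them Klf4, Esrrb and Prdm14, fell in EpiLC, and all 9 EpiLC markers tested, among them Fgf5, Otx2 and Dnmt3b, rose. ESC replicate 3 stood apart from the other 2 ESC libraries: among the 160 members present in both states, its median absolute log2 difference was 0.32 to ESC replicate 1 and 0.36 to ESC replicate 2, against 0.14 between those 2 and 0.19 to 0.22 between EpiLC libraries. Transcripts of fibroblast markers moved with the state: 4 of 6 tested were higher in EpiLC, and their summed level was 21.8 to 24.7 CPM in EpiLC against 5.14 to 6.58 CPM in ESC, with Fap at 0 in every library. Primitive endoderm markers summed to 16.7 to 19.2 CPM in EpiLC against 4.57 to 10.6 CPM in ESC; of 4 tested, Dab2 and Gata4 were higher, Sox17 was lower (log2 fold change -4.31) and Pdgfra was not called. Beside these marker counts, 32.0% of all genes tested were called higher in EpiLC and 32.6% lower. The part of fibroblast-like or primitive endoderm cells in the changes below was not tested.

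The expressed lincRNAs took 4.92%, 5.15% and 5.46% of all counts in the EpiLC libraries, against 4.57%, 4.50% and 4.75% in the ESC libraries. Most of this came from 3 neighbouring loci on chromosome 17 that resemble ribosomal RNA: Gm26917, Gm42418 (listed as Rn18s-rs5 in RefSeq) and AY036118, which together held 4.07% to 4.71% of counts in EpiLC and 3.84% to 4.04% in ESC. Malat1 held a further 0.570% to 0.671% in EpiLC and 0.432% to 0.488% in ESC. The remaining members shared 0.183% to 0.187% of counts in EpiLC and 0.213% to 0.225% in ESC, and this share did not overlap between the states. Most of the gap between the state means came from a single gene, Lncenc1. It averaged 17.3 CPM of the column total in EpiLC and 278 CPM in ESC. The gap is therefore not a shift shared by the remaining members.

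Gm26917 was counted at 36306, 38598 and 42805 CPM in EpiLC and 36970, 35894 and 38155 CPM in ESC, and its difference did not pass the test (log2 fold change 0.08 ± 0.10, SE; adjusted p = 0.498). Gm42418 stood at 3436 ± 175 CPM in EpiLC and 2580 ± 310 CPM in ESC (SD, n = 3) and was called higher in EpiLC. AY036118, which lies on the other strand within Gm42418, had 81.5, 62.2 and 45 CPM in EpiLC, against 1381, 828 and 60.2 CPM in ESC. ESC replicate 3 therefore lay within the EpiLC range, while the other 2 ESC libraries were far above it. AY036118 was called lower (log2 fold change -3.59 ± 0.91, SE; adjusted p = 0.00811), and without ESC replicate 1 the change was -2.85. With limma-voom the call was lost (adjusted p = 0.0572). Because the labels give a stranded kit but not the strand setting used in counting, reads of this pair may not be separated, and ribosomal RNA depletion acts on the same sequences.

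Levels of different lincRNAs can be compared only per length. Per kb of exonic sequence, the median member reached 1.76 CPM per kb in its higher state, against 6.85 CPM per kb for the 13271 protein-coding genes that met the same level rule. Apart from the chromosome 17 loci, the members with the most counts per kb were Malat1 (884 CPM per kb in EpiLC, 670 in ESC), Lncenc1 (5.15 in EpiLC, 86.4 in ESC), Platr10 (75.5 in EpiLC, 70.0 in ESC), Epb41l4aos (63.6 in EpiLC, 60.6 in ESC) and Snhg6 (47.3 in EpiLC, 62.2 in ESC). Members were short, with a median of 2018.5 exonic bases against 4498 for those protein-coding genes. Single-exon genes made up 12.7% of members and 2.38% of the protein-coding genes. Only 8 members had a mean of 100 CPM or more in their higher state, and 177 had 2 CPM or more.

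Between the states, 69 members were called higher in EpiLC, 96 were called lower, 92 were tested without a call and 19 had too few counts to be tested, at an adjusted p under 0.05 in edgeR's quasi-likelihood test with Benjamini-Hochberg adjustment over all 14996 genes tested. Of all genes tested, 64.6% were called, 32.0% higher in EpiLC and 32.6% lower. Of the 257 members tested, 64.2% were called, 26.8% higher and 37.4% lower, which is close to that background in total. The level rule shaped these counts: every one of the 52 tested members present in ESC only was called lower, and 33 of the 45 tested members present in EpiLC only were called higher. Among the 160 members present in both states, 36 were higher, 44 were lower and 80 were not called, so 80 of the 160 were called, against 64.4% of the 11707 protein-coding genes present in both states, whose levels were higher. Without ESC replicate 3, 92 of all members were called higher and 105 lower, and of the 160 present in both states, 51 higher and 50 lower. Calls over all genes rose in that fit too, as given in the last section, so this rise was not particular to the members.

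The median absolute log2 fold change was 0.88 over the 257 tested members, against 0.52 over protein-coding genes under the same level rule. It was 0.53 over the 160 members present in both states, against 0.44 over protein-coding genes present in both. The signed median over tested members was 0.03, against 0.01 for all genes tested. Of the called members, 40 rose and 75 fell at least 2-fold, and 20 rose and 52 fell at least 4-fold. Called changes of at least 2-fold made up 44.7% of the tested members, against 29.4% of all genes tested and 29.2% of the protein-coding genes under the same level rule. In the 160 members present in both states that share was 23.8%, against 22.0% of protein-coding genes present in both. The groups did not overlap for 70.4% of tested members and for 70.2% of all genes tested.

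**Figure D1:**
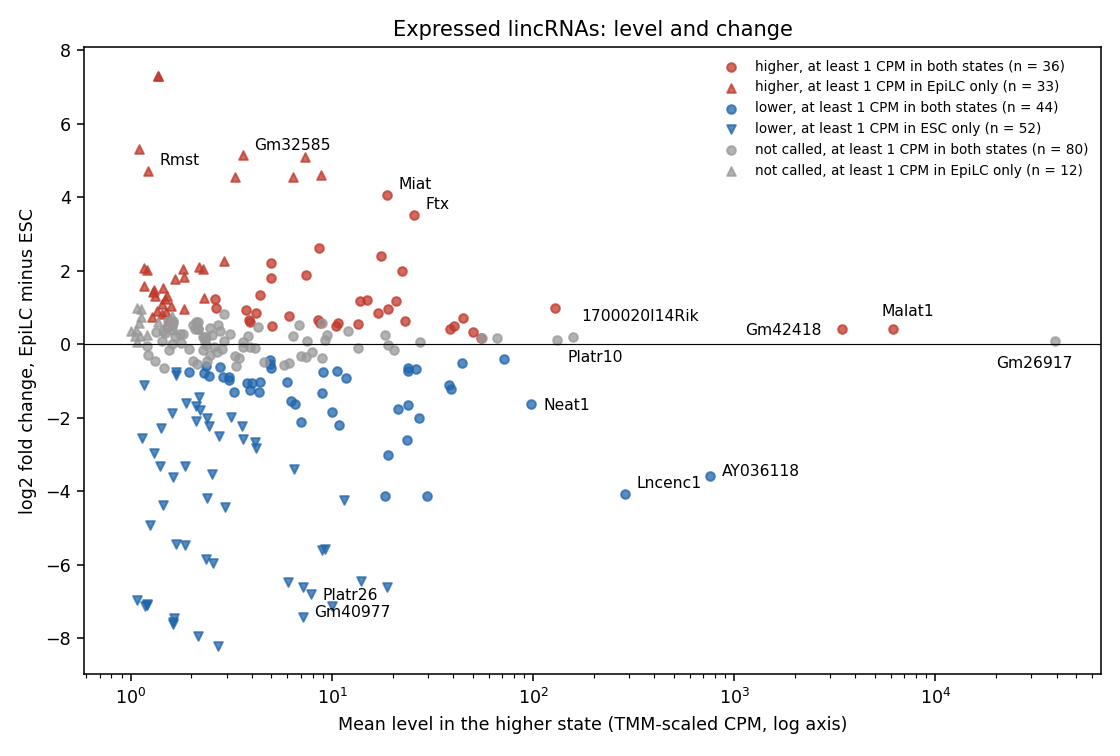
Each point is one of the 257 tested lincRNAs, with its mean level in the higher state (TMM-scaled CPM, log axis) across and its log2 fold change, EpiLC minus ESC, upward; colour gives the call and marker shape the state in which 1 CPM was reached. Changes beyond 4-fold lie mostly at low levels, while Lncenc1 (log2 fold change -4.07) combines a large fall with a mean of 285 CPM in ESC.

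**Figure D2:**
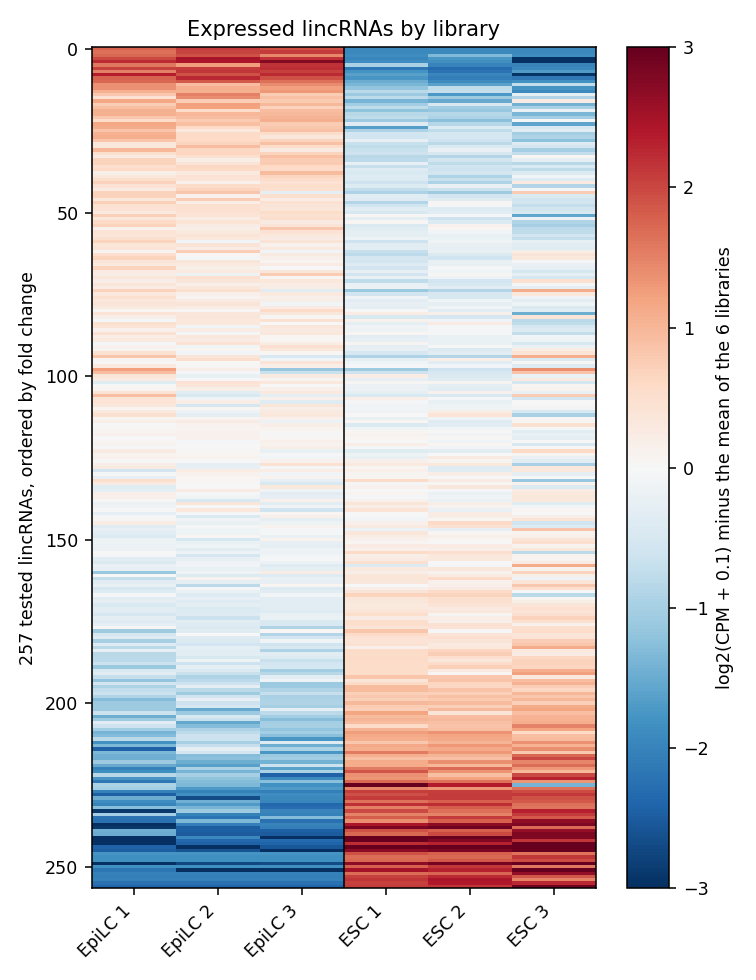
Rows are the 257 tested lincRNAs ordered by fold change and columns the 3 EpiLC and 3 ESC libraries; colour is log2(CPM + 0.1) minus the mean of the 6 libraries. The top rows are high in all EpiLC libraries and the bottom rows in all ESC libraries, with ESC replicate 3 more uneven than ESC replicates 1 and 2.

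Most pluripotency-linked lincRNAs fell in EpiLC. Of the 13 members on this list, 11 were called lower, Platr22 was called higher and Platr10 was not called; their median change was -2.82 on the log2 scale, against 0.01 over all genes tested, of which 32.6% were called lower. Platr26, Platr6, Platr7, Platr28 and Platr11 had reached 1 CPM in ESC only, so the level rule itself favoured their calls as lower. Of the 8 that reached 1 CPM in both states, 6 were called lower, 1 was called higher and 1 was not called, with a median of -1.29. All 12 calls held when any 1 library was left out. The list comes from work on cells of this kind and is not independent evidence of its direction. Lncenc1 (chr13:97434970-97497007, plus strand, 3 exons), a nuclear lincRNA of naive ESC, had 17.1, 17 and 16.9 CPM in EpiLC, against 293, 293 and 270 CPM in ESC. Its states were far apart and its libraries close together, with a log2 fold change of -4.07 ± 0.07 (SE; adjusted p = 1.99e-08). Eprn (chr13:73344665-73347384, minus strand), whose transcript Ephemeron modulates the exit from the naive state in mouse ESC, had 16.4, 16.5 and 17.1 CPM in EpiLC, against 37.2, 38.0 and 41.5 CPM in ESC. Eprn therefore fell, by 1.22 ± 0.09 on the log2 scale (SE; adjusted p = 7.46e-06), and remained readily counted in EpiLC.

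The PLATR members ranged from near absence in EpiLC to no call. Platr26 (chr2:71719417-71730966) had 0.10, 0.0855 and 0 CPM in EpiLC, against 7.0, 7.71 and 8.89 CPM in ESC. With only 2 EpiLC counts in all, its scaled ratio of ESC to EpiLC was 127, with a 95% counting interval of 34.8 to 1049. Platr6 had 1 count in the 3 EpiLC libraries together and 2.57 ± 1.11 CPM in ESC (SD, n = 3), a ratio of ESC to EpiLC of 77.6 with an interval of 13.7 to 3088. Platr7 (chr10:84547417-84553338) had 0.602, 0.770 and 0.446 CPM in EpiLC, against 12.8, 13 and 8.80 CPM in ESC. In EpiLC, Platr26 and Platr6 thus lay under the level of 3 counts per library. Platr7 lay above that level but under 1 CPM in each EpiLC library, as did Platr28 and Platr11 below, so these fold changes also rest on few counts.

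Other PLATR members fell less far. Platr3 averaged 2.30 ± 0.94 CPM in EpiLC and 19 ± 2.62 CPM in ESC, and Platr28 averaged 0.573 ± 0.173 CPM in EpiLC and 6.49 ± 2.99 CPM in ESC (SD, n = 3 each). Platr11, which lies 72113 bases from the start of Eomes, the mesendoderm regulator, averaged 0.584 ± 0.103 CPM in EpiLC and 4.19 ± 0.54 CPM in ESC, while Eomes itself was not called. Platr4, Platr27 and Platr20 fell by 1.76, 1.33 and 1.25 on the log2 scale. Platr10 differed from all of these: it was among the highest of the group in both states, with 125, 139 and 132 CPM in EpiLC and 133, 131 and 103 CPM in ESC, and its 95% interval ran from -0.13 to 0.34 on the log2 scale.

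Platr22 (chr1:136696211-136726142, plus strand) moved the other way. It had 19.3, 15.8 and 17.5 CPM in EpiLC, against 3.17, 4.28 and 2.09 CPM in ESC, a log2 fold change of 2.39 ± 0.21 (SE; adjusted p = 2.63e-05). Its upstream neighbour on the same strand, the lincRNA Gm19705, ends 5406 bases before it and had 1.81, 2.82 and 2.41 CPM in EpiLC, against 12, 12.8 and 7.49 CPM in ESC. The adjacent transcripts were therefore called in opposite directions (Gm19705 log2 fold change -2.21 ± 0.27, SE; adjusted p = 1.54e-04), and neither has an exon that overlaps another gene in the annotation. Gm19705 was chosen after its values were seen, from the 17 pairs of members whose genes overlap or lie within 20 kb of each other. In 6 of those pairs both members were called, 4 of them in the same direction, including Platr26 with Gm17250, Platr4 with Gm40040 and 1110002J07Rik with Gm26576.

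**Figure D3:**
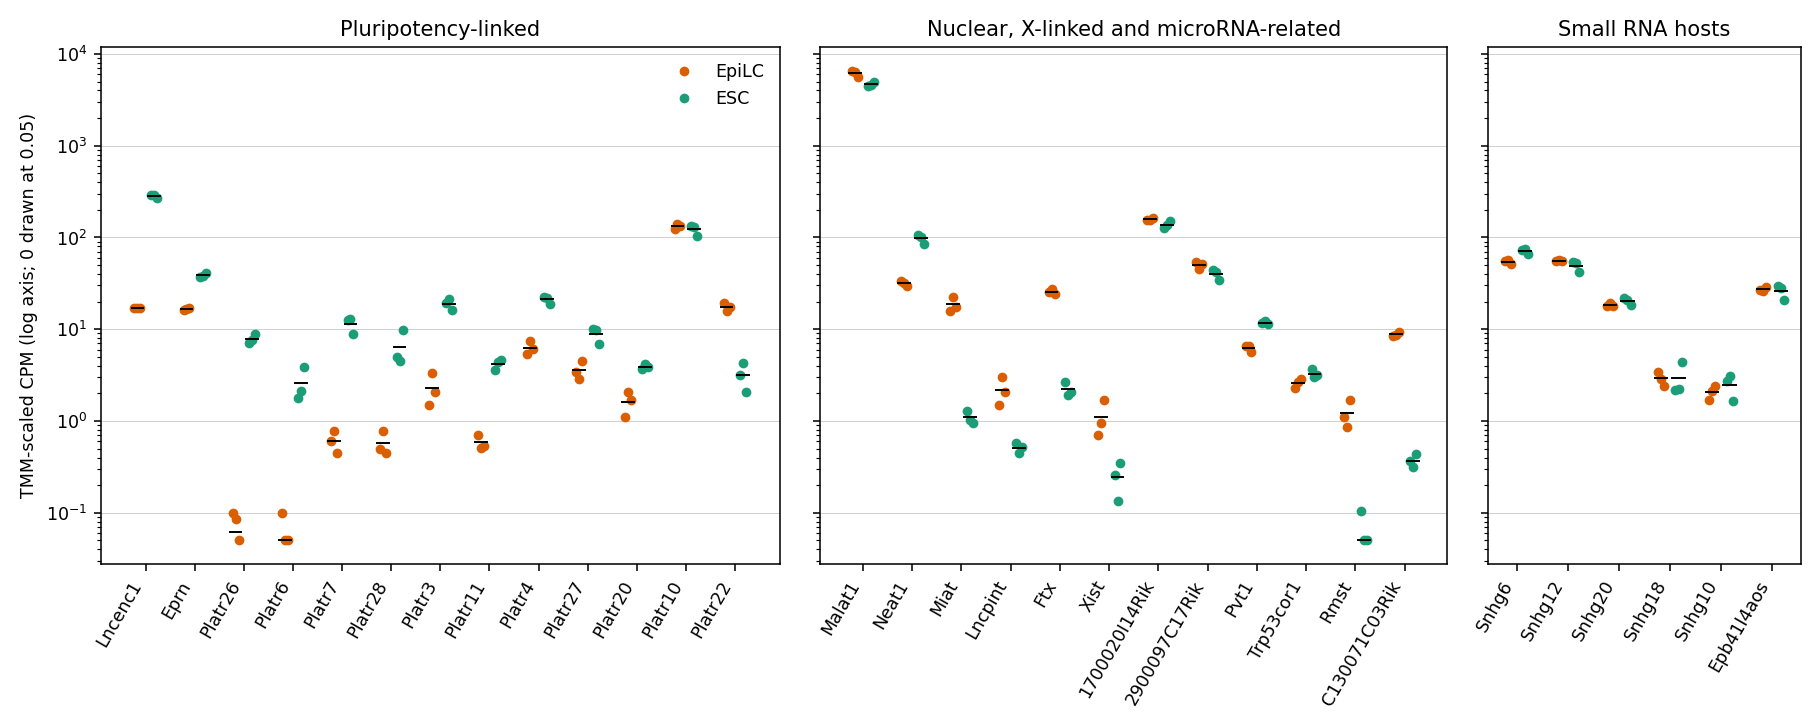
Points are the 3 libraries of EpiLC (left in each pair) and of ESC (right), and bars their means, in TMM-scaled CPM on a log axis with 0 drawn at 0.05. Lncenc1, Eprn and most PLATR members are lower in EpiLC, Platr22, Miat, Ftx and C130071C03Rik are higher in EpiLC, and the small RNA hosts stay within a narrow range.

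Nuclear-body lincRNAs did not move together. Malat1 (chr19:5795690-5802672), an RNA of nuclear speckles, had 6544, 6361 and 5618 CPM in EpiLC, against 4510, 4641 and 4888 CPM in ESC, a log2 fold change of 0.40 ± 0.08 (SE; adjusted p = 0.00314). Neat1 (chr19:5824708-5845478), the scaffold of paraspeckles and a neighbour of Malat1 on the same strand, had 33.4, 31.8 and 29.4 CPM in EpiLC, against 108, 101 and 85.0 CPM in ESC. Neat1 fell by 1.64 ± 0.10 on the log2 scale (SE; adjusted p = 4.27e-06), so these neighbours were called in opposite directions. Among 12 paraspeckle and speckle protein genes, 6 were higher, 1 was lower and 5 were not called, with a median change of 0.20 on the log2 scale. For comparison, 64.6% of all genes tested were called, 32.0% higher and 32.6% lower. Of the proteins that build paraspeckles, Sfpq and Pspc1 were higher (log2 fold change 0.57 and 0.80) and Nono had -0.24 without a call (adjusted p = 0.0519); the speckle protein gene Srrm2 was higher by 1.0.

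Miat (chr5:112213228-112229395, also called Gomafu), a nuclear RNA that binds splicing factors, had 15.9, 22.5 and 17.7 CPM in EpiLC, against 1.30, 1.04 and 0.958 CPM in ESC. It rose by 4.06 ± 0.21 on the log2 scale (SE; adjusted p = 1.53e-06). Lncpint, a p53-induced RNA that binds Polycomb proteins, averaged 2.18 ± 0.75 CPM in EpiLC and 0.515 ± 0.061 CPM in ESC (SD, n = 3 each) and was higher by 2.10. Lncpint reached 1 CPM in EpiLC only, so the level rule itself favoured its call. Exons of Miat and Lncpint overlap annotated exons on the other strand, so a part of their counts may come from those genes.

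In the X-inactivation centre, Ftx and Xist were members. Ftx (chrX:103560907-103623790, minus strand, 17 exons), a positive regulator of Xist in mouse, had 25.2, 27.5 and 24.0 CPM in EpiLC, against 2.65, 1.94 and 2.09 CPM in ESC. Its log2 fold change of 3.52 ± 0.15 (SE; adjusted p = 5.57e-07) was among the largest of the members with over 10 CPM. Xist, which coats and silences the inactive X chromosome in female cells, stayed near the threshold, with 0.703, 0.941 and 1.70 CPM in EpiLC, against 0.259, 0.135 and 0.348 CPM in ESC, and was below the count filter. Without that filter its log2 fold change was 2.19 (adjusted p = 0.00372), and its exons overlap those of Tsix on the other strand. Tsix, which is not a member, was lower in EpiLC by 0.62. Of 10 genes for proteins that act with Xist, 6 were higher, 1 was lower and 3 were not called, where 32.0% of all genes tested were called higher and 32.6% lower; their median change was 0.27 on the log2 scale. Rlim, whose product promotes Xist activation, had a log2 fold change of 1.69, Smchd1, a silencing factor, had 1.04, and Wtap, of the RNA methylation complex, fell by 0.71.

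The lincRNA hosts of small nucleolar RNAs changed little. Snhg6 averaged 54.2 ± 2.56 CPM in EpiLC and 71.3 ± 4.28 CPM in ESC (SD, n = 3 each) and was called lower, by 0.40 ± 0.08 on the log2 scale (SE; adjusted p = 0.00192). Snhg12, Snhg20, Snhg18, Snhg10 and Epb41l4aos were not called, with log2 fold changes from -0.31 to 0.17. The interval for Snhg12, at 55.6 ± 0.98 CPM in EpiLC and 49.4 ± 6.81 CPM in ESC, ran from -0.07 to 0.40, whereas that of Snhg10, counted at only 2.09 and 2.49 CPM, ran from -0.94 to 0.32. Without ESC replicate 3, Snhg20 was called lower (log2 fold change -0.23, adjusted p = 0.0237).

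The microRNA hosts called higher in EpiLC differed widely in level. C130071C03Rik (chr13:83721381-83884194, plus strand), which spans miR-9-2, a microRNA of the nervous system, had 8.43, 8.72 and 9.37 CPM in EpiLC, against 0.363, 0.315 and 0.436 CPM in ESC. It rose by 4.59 ± 0.21 on the log2 scale (SE; adjusted p = 9.10e-07). Rmst (chr10:92071037-92165170), which spans miR-135a-2 and whose human counterpart binds SOX2 in neural progenitors, had 1.10, 0.855 and 1.70 CPM in EpiLC, against 0.104, 0 and 0 CPM in ESC. With 2 ESC counts in all, its ratio of EpiLC to ESC was 32.2, with a 95% counting interval of 8.36 to 275. C130071C03Rik and Rmst reached 1 CPM in EpiLC only, so the level rule itself favoured their calls as higher. The let-7 host 6720427I07Rik, named here after its values were seen, had 45, 45.3 and 43.7 CPM in EpiLC, against 28.6, 29.6 and 23.5 CPM in ESC, and was higher by 0.71 ± 0.10 on the log2 scale (SE; adjusted p = 3.60e-04). E130102H24Rik, the host of miR-101a and also named after its values were seen, was lower, at 1.63 ± 0.54 CPM in EpiLC and 3.07 ± 0.26 CPM in ESC, but lost its call without EpiLC replicate 1 or EpiLC replicate 3.

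The RNAs that bind microRNAs or Pumilio proteins stayed within narrow limits. 1700020I14Rik (Cyrano) had 156, 155 and 162 CPM in EpiLC and 126, 137 and 152 CPM in ESC. The groups did not overlap, but the log2 fold change of 0.20 ± 0.08 (SE) fell just short of the threshold (adjusted p = 0.0527). Without ESC replicate 3 it passed, at 0.25 (adjusted p = 4.17e-04). 2900097C17Rik (chr2:156388065-156392979), listed in RefSeq as Norad, the RNA that sequesters Pumilio proteins, had 54.4, 45.8 and 51.1 CPM in EpiLC, against 43.9, 42.0 and 34.1 CPM in ESC. Its call as higher (log2 fold change 0.33 ± 0.11, SE; adjusted p = 0.0315) was lost without ESC replicate 2, EpiLC replicate 1 or EpiLC replicate 3, with adjusted p of 0.0583, 0.113 and 0.0961, with DESeq2 (0.063) and without the count filter (0.161). The single-exon transcript of 4915 bases held 11 copies of the Pumilio element TGTANATA on its own strand, more than any other member: 217 of 276 members held none and only Xist, with 6, also reached 5. Of 8 genes for Pumilio proteins and the microRNA machinery, 5 were higher, 1 was lower and 2 were not called, with a median change of 0.41 on the log2 scale. The list is short, and 64.6% of all genes tested were called, 32.0% higher and 32.6% lower. Pum2 was higher by 0.40 and Zswim8, which acts in microRNA decay, was higher by 1.22 on the log2 scale.

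Pvt1 (chr15:62037986-62378096), which lies 52595 bases from Myc, was lower in EpiLC, at 6.52, 6.50 and 5.71 CPM, against 11.6, 12.2 and 11.4 CPM in ESC, by 0.91 ± 0.12 on the log2 scale (SE; adjusted p = 2.87e-04). Myc moved the other way, with 23.4, 19.6 and 24.7 CPM in EpiLC, against 2.39, 2.88 and 1.13 CPM in ESC (log2 fold change 3.30 ± 0.23, SE; adjusted p = 7.73e-06). Trp53cor1, the p53-induced lincRNA-p21, was not called (2.61 ± 0.28 CPM in EpiLC and 3.28 ± 0.36 CPM in ESC), while Cdkn1a, 11797 bases away, was lower by 1.02. The interval for Trp53cor1 ran from -0.77 to 0.11 on the log2 scale, and the difference between the genes was not tested.

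Of the lncRNAs listed for lying beside lineage genes, 7 are annotated as lincRNA and 2 of these were members. Rmst is described above. Bvht (chr18:61639542-61647472), Braveheart, which is needed for cardiac commitment of mouse ESC, had 1.61, 1.71 and 1.43 CPM in EpiLC, against 6.95, 6.4 and 7.75 CPM in ESC, and fell by 2.13 ± 0.19 on the log2 scale (SE; adjusted p = 2.45e-05). Hotair, Hottip and Fendrr, RNAs of later lineages, had 0 counts in every library. Otx2os1 stayed below the threshold, at 0.280 CPM in EpiLC and 0.105 CPM in ESC, while Otx2 itself had 53.6 CPM in EpiLC and 3.31 CPM in ESC.

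The deepest falls beyond the PLATR group were in transcripts that carry only catalogue names. Gm807 (chr13:99100706-99107580) had 0, 0.0855 and 0.0893 CPM in EpiLC, against 7.78, 8.88 and 13.3 CPM in ESC, and its ratio of ESC to EpiLC was 155 with a 95% counting interval of 42.7 to 1285. Gm31659 (chr8:95808552-95818274) had 0.301, 0 and 0.268 CPM in EpiLC, against 17.4, 16.9 and 22.1 CPM in ESC. Gm26564 (chr10:34230907-34233531) had 0, 0.342 and 0.0893 CPM in EpiLC, against 14.1, 16.1 and 11.4 CPM in ESC. The EpiLC levels of these transcripts were at or under the level of 3 counts per library, apart from 1 library of Gm26564 just above it. Their fitted changes moved with single libraries: without EpiLC replicate 2, Gm31659 stood at -6.0 against -6.61 with all libraries, and Gm26564 at -7.98 against -6.45, on the log2 scale. Gm40977, Gm33027 and Gm46332 belonged to the same set, with 1 or 2 EpiLC counts in all and 6.02 to 7.18 CPM in ESC. Gm1070, which RefSeq classes as protein-coding together with 15 other members, averaged 0.175 ± 0.151 CPM in EpiLC and 9.27 ± 1.20 CPM in ESC. All members named in this set reached 1 CPM in ESC only, so the level rule itself favoured their calls as lower.

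Halr1 (chr6:52102949-52113684), known as Haunt, had 0.10, 0.171 and 0.268 CPM in EpiLC, against 10.6, 11.4 and 4.79 CPM in ESC. It fell by 5.6 ± 0.57 on the log2 scale (SE; adjusted p = 4.48e-05). Halr1 reached 1 CPM in ESC only, so the level rule itself favoured this call. A further 11 tested members had 0 counts throughout one state: 9 in EpiLC, which were at least 12-fold to 27.7-fold lower there, and 2 in ESC, Gm11515 and Gm29895, which were each at least 24.2-fold higher in EpiLC, computed against 3 counts over the 3 libraries.

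Among the largest rises, Gm39090 (chr7:127691935-127700793) had 6.12, 6.93 and 8.84 CPM in EpiLC, against 0.259, 0.270 and 0 CPM in ESC. Gm32585 (chr5:125238314-125272815) had 3.01, 4.28 and 3.48 CPM in EpiLC, against 0.104, 0.135 and 0 CPM in ESC. The ESC levels of both lay close to the level of 3 counts per library. AI504432 (chr3:107039504-107054347) had 7.23, 5.30 and 6.61 CPM in EpiLC, against 0.363, 0.270 and 0.0871 CPM in ESC. Kcna3, a voltage-gated potassium channel gene that starts 3335 bases from AI504432 on the same strand, had 2.31, 2.91 and 2.23 CPM in EpiLC, against 0.208, 0.315 and 0.0871 CPM in ESC (log2 fold change 3.41 ± 0.34, SE; adjusted p = 5.23e-05). The lincRNA and its neighbour thus rose together. Gm39090, Gm32585 and AI504432 reached 1 CPM in EpiLC only, so the level rule itself favoured their calls as higher.

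Gm2762 was higher by 4.55 ± 0.37 and Gm48898 by 2.21 ± 0.38 on the log2 scale (SE). Gdf7, a BMP-family ligand gene 8260 bases from Gm48898, was higher by 1.38. B830012L14Rik (chr12:109695586-109702587, plus strand) had 9.33, 6.84 and 9.55 CPM in EpiLC, against 1.30, 1.08 and 2.09 CPM in ESC, a log2 fold change of 2.60 ± 0.25 (SE; adjusted p = 4.65e-05). It lies 33.9 kb beyond the annotated end of Rian and 27.2 kb before Mirg, in the imprinted Dlk1-Dio3 domain whose main transcripts were left out by name.

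Of the 92 members without a call, 52 had a 95% interval that lay wholly within a 2-fold change in either direction. The 6 with the highest levels were Gm26917, 1700020I14Rik, Platr10, AU020206, Snhg12 and Epb41l4aos. AU020206 had 61.9, 65.9 and 69.8 CPM in EpiLC and 44.9, 48.0 and 83.5 CPM in ESC. Here ESC replicate 3 decided the outcome, since without it the log2 fold change was 0.49 (adjusted p = 6.67e-06), against 0.18 with all libraries.

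The nearest protein-coding start lay at a median distance of 23112 bases from the start of a member, within 2 kb for 51 members and within 50 kb for 197. Of the 256 different neighbour genes, 207 were tested, 58 were higher in EpiLC and 74 lower, so 63.8% were called, against 64.6% of all genes tested. Where both the lincRNA and a neighbour within 50 kb were called, they moved in the same direction in 39 of 58 pairs (67.2%). For protein-coding genes under the same level rule and their own nearest protein-coding neighbours, the share was 69.5% (2195 of 3160 pairs). Within 10 kb the shares were 77.3% (17 of 22) for lincRNAs and 75.8% for protein-coding genes. Across the 160 pairs within 50 kb with both tested, Pearson's r between the log2 fold changes was 0.34, and 0.30 over the 7425 protein-coding pairs; pairs share libraries and some share a neighbour, so these are descriptions.

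**Figure D4:**
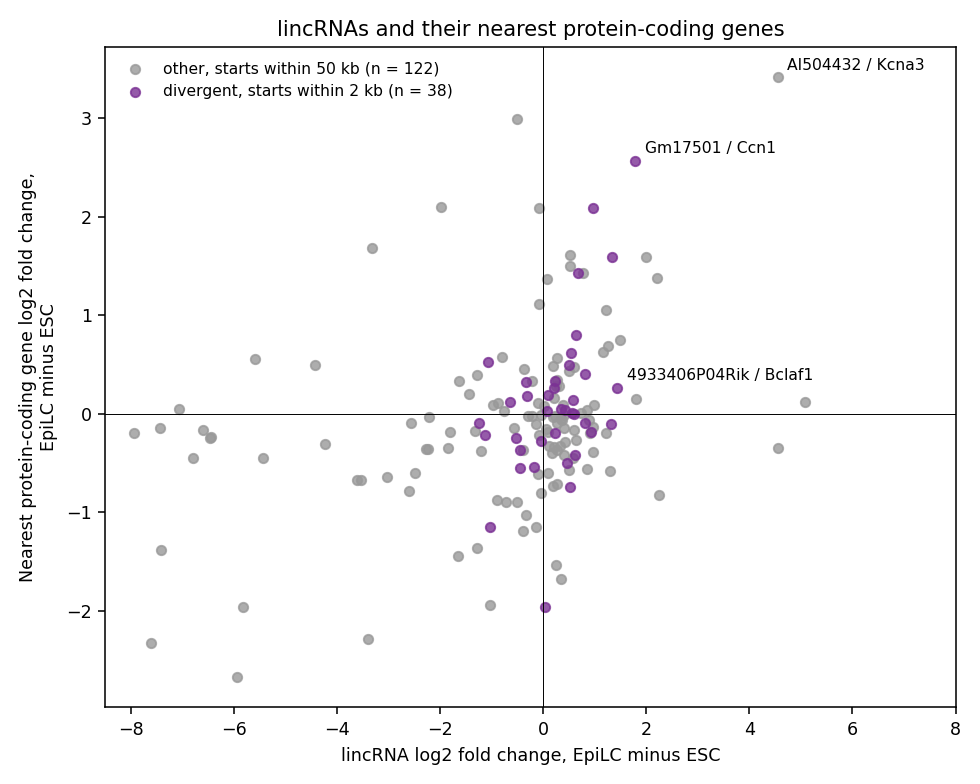
Each point is a lincRNA with a tested nearest protein-coding gene whose start lies within 50 kb; the lincRNA's log2 fold change, EpiLC minus ESC, runs across and that of the neighbour upward. Purple points are the 38 divergent pairs with starts within 2 kb, among which Gm17501 and Ccn1 rose together, and the large falls of lincRNAs at the left have neighbours spread around 0 or below.

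Divergent pairs, with starts within 2 kb on opposite strands and without overlap, numbered 41, of which 38 had both genes tested. Both were called in 10, and 8 of these moved in the same direction. For protein-coding genes under the same level rule with a divergent protein-coding neighbour within 2 kb, the share was 78.7% (373 of 474 pairs). The lincRNA pairs were thus close to that background, and they were few. Gm17501 averaged 1.66 ± 0.32 CPM in EpiLC and 0.483 ± 0.239 CPM in ESC, and Ccn1, a matricellular protein gene 331 bases away, averaged 222 ± 8.28 CPM in EpiLC and 38.0 ± 16.6 CPM in ESC (SD, n = 3 each). These were higher by 1.78 and 2.56 on the log2 scale. Gm17501 reached 1 CPM in EpiLC only, so the level rule itself favoured its call.

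In 4 other divergent pairs with large lincRNA changes, the neighbour was not called. 4933406P04Rik was higher by 1.43 and B230317F23Rik by 1.32, beside Bclaf1 at 0.27 and Clcn3 at -0.11. Platr20 and Gm15728 fell by 1.25 and 1.13, beside Gm12569 at -0.09 and Rfc5, a replication factor gene, at -0.22. The call of Gm15728 was lost without EpiLC replicate 1 or EpiLC replicate 3 and with DESeq2 (adjusted p = 0.105). A lincRNA and the gene across a shared start region could thus both change or differ in call, and the difference within a pair was not tested.

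RefSeq start windows could be matched for 149 of the 276 members, and for 119 of them the RefSeq start lay within 500 bases of the GENCODE start. In these 119 windows the median CpG count was 10, against 21 for 9175 protein-coding genes under the same level rule. By call, the medians were 10.5 for 22 members higher in EpiLC, 6 for 48 lower and 18 for 37 not called. Distance to protein-coding starts moved with this: among windows of members more than 10 kb from the nearest protein-coding start, the medians were 9 for 16 higher, 6 for 40 lower and 6 for 15 not called. Platr7 and Lncenc1, whose windows are printed above, lie 19276 and 193865 bases from the nearest protein-coding start.

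**Figure D5:**
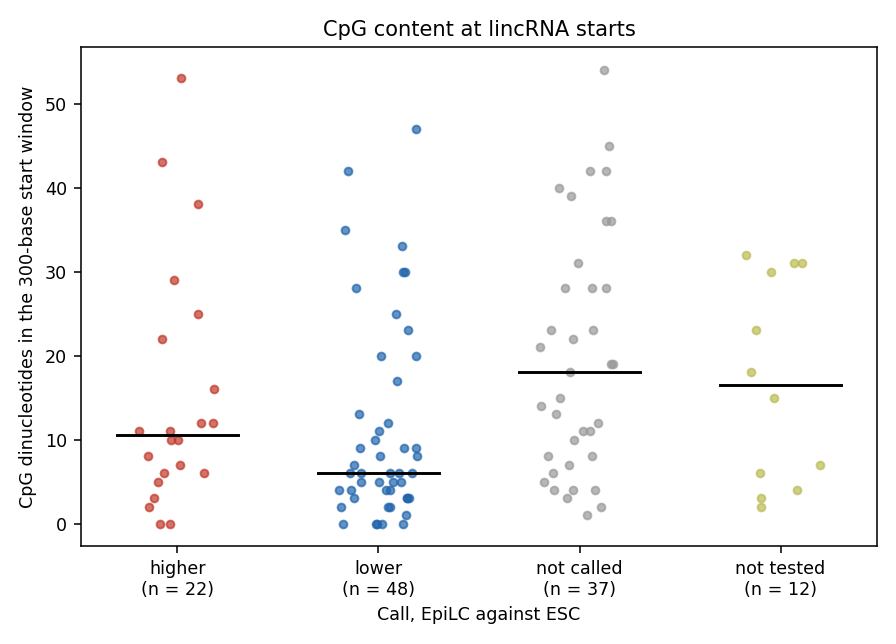
Each point is the number of CpG dinucleotides in the 300-base RefSeq start window of 1 of 119 members, grouped by call in EpiLC against ESC, with bars at the medians. The medians are 10.5 (higher), 6 (lower), 18 (not called) and 16.5 (not tested), and every group spreads from under 10 to over 30.

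Motif letters were counted on both strands of the same windows as a description. The GRHL core AACCNGTT was in 0 of 119 member windows and in 2.09% of the 32851 windows of the whole table. The ESRRB site AAGGTCA was in 7.56% of member windows, among them those of Platr7 and Ftx, against 4.72% of all windows. The octamer ATGCAAA was in 5.88% against 4.63%, the KLF letters GGGNGTGG in 23.5% against 17.6% (24.0% of the protein-coding windows above), the STAT letters TTCNNGGAA in 3.36% against 4.81%, and the OTX letters TAATCC in 11.8% against 7.06%. In the 9175 protein-coding windows the other shares were 1.79% (GRHL), 3.05% (ESRRB), 3.20% (octamer), 4.44% (STAT) and 5.34% (OTX). TAATCC was in 0 of the 22 windows of members higher in EpiLC, 7 of the 48 of members lower and 5 of the 37 of members not called. These windows are few, and the split by call was not tested.

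Exons of 27 members overlapped an exon of another gene on the same strand, often a short RNA held within the transcript, and those of 60 overlapped a gene on the other strand, so that reads of these members may be split or shared. For the 202 members without any such overlap, 47 were called higher, 77 lower and 67 not called. The 12 genes for lncRNA decay and the nuclear exosome showed no single direction: 2 were higher, 4 were lower and 6 were not called. Their median change was 0.02 on the log2 scale. Over all genes tested, 32.0% were called higher and 32.6% lower. Xrn2, a nuclear exonuclease, and Zcchc8, of the exosome targeting complex, fell by 0.74 and 0.71 on the log2 scale, and Upf1, a helicase of RNA surveillance, was higher by 0.82.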

How the data were processed

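Total RNA depleted of ribosomal RNA was made into libraries with a strand-specific kit, as the labels' protocols say. The file the authors deposited holds raw counts per gene; cutadapt, STAR, featureCounts and DESeq2 and the build mm10 are named in the submitters' processing notes without versions, and neither the strand setting nor the annotation release is stated there. The 92 spike-in rows held 0 counts, and 193 Ensembl rows had no GENCODE M21 entry. Members and lists were chosen with earlier results of these data known. Membership used CPM of the column total; printed levels are CPM scaled by TMM. Library totals were 9710410 to 22879812 counts. Genes passing filterByExpr (14996) were tested with edgeR 4.0.16 (glmQLFit, glmQLFTest, R 4.3.3), EpiLC against ESC with no covariate; SE is the log2 fold change divided by the square root of F. On data simulated for this comparison (14633 genes), 80.3% of 2-fold and 38.3% of 1.5-fold changes were called, and 0.125% of unchanged genes. The changed genes were drawn from all genes that passed the filter, and recovery among members alone was not measured. The median level in the higher state was 2.69 CPM for members, against 31.7 CPM for protein-coding genes under the same level rule. The text names listed lncRNAs, the 5 highest members, the 10 largest called rises and falls of at least 3 CPM whose EpiLC and ESC values do not overlap, the 6 highest uncalled members within 2-fold, the threshold neighbours, and neighbours and divergent partners of these. Alternatives were other scalings and filters, DESeq2 1.42.0, limma-voom 3.58.1, a replicate block and leaving out each library. A few neighbour and list genes that this rule covers are not reported here.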

Additional observations from a re-analysis of the deposited data

How the results depend on the processing

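Under other scalings and filters, DESeq2, limma-voom and removal of Gm26917 and Gm42418, 60 to 73 members were called higher in EpiLC and 89 to 105 lower. Leaving out each library gave 60 to 92 higher and 89 to 105 lower, 8514 to 11731 calls over all genes and 111 to 155 over the neighbour genes, with the highest counts without ESC replicate 3. For members present in both states, a count added after seeing the data, these fits gave 29 to 51 higher and 34 to 50 lower. Membership at 5 CPM left 32 called higher and 38 lower, and asking for at least 2-fold left 40 higher. Keeping Mir9-3hg and Mir124a-1hg, also added later, gave 69 higher and 97 lower. Without Gm26917 and Gm42418 the share of counts was 0.860% in EpiLC and 0.778% in ESC, against 5.18% and 4.61% with them.

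Same-numbered libraries did not deviate together (correlations -0.0853, -0.00587 and -0.149 over 14996 genes). With 3 libraries per state, these values cannot decide whether the numbers pair the libraries, and the labels do not say. A replicate block gave 61 members higher, 92 lower, 122 neighbour genes and 9234 genes called, and changed no call of a named member.

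Among 55 named members, 797 of 820 values kept direction and call. No called member reversed. Of the uncalled ones, leaving out a library spanned -0.00128 to 0.49 for AU020206, -0.078 to 0.13 for Epb41l4aos, -0.011 to 0.15 for Platr10 and -0.10 to 0.38 for Snhg18 (log2 fold change); without the count filter Epb41l4aos was at -0.017. The call of AY036118 was lost with limma-voom (log2 fold change -2.84, adjusted p = 0.0572), that of Gm15728 with DESeq2 (-1.19, 0.105), and that of 2900097C17Rik with DESeq2 (0.30, 0.063) and without the count filter (0.25, 0.161). The causes were not tested. Depth limits the members near 1 CPM: 19 could not be tested.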
